A study of Homo sapiens with 12 samples.

Results

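The S100 and annexin genes described here are S100A4, S100A6, S100A10, S100A11, S100A13, S100A16, ANXA1, ANXA2, ANXA3 and ANXA5, 10 of the 53712 named genes in a table of RNA-sequencing counts. They were taken by symbol from a list chosen by their CPM across the 3 oligo groups and the 4 library numbers of the same 12 libraries. Every value of these 10 genes is therefore a description and carries no p-value. All 10 passed the filter on low counts, also in the 8 libraries without ASO-L1.

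The libraries came from H9, an established line of human embryonic stem cells, and so from 1 genetic background. The series asks what LINE1 (L1), an abundant family of transposable elements, does in such cells held in RSeT, a medium meant for the naive state of pluripotency. ASO-L1 cultures received antisense oligos against L1, SO-L1 cultures the sense oligos for L1, and ASO-Ctr cultures antisense oligos with no specific target, each at 25 nM. Each group had 4 libraries, numbered 1 to 4. From transfection on, all 3 groups, the controls included, were kept with 10 nM DZNep, which lowers histone methylation, and 5 nM TSA, an inhibitor of histone deacetylases. All were also given trans-ISRIB, emricasan and Y-27632 at transfection. These supplements were taken away at 24 h, and the cells were harvested at 48 h with no sorting, so any untransfected cells were included. Nothing in the labels says whether the 4 libraries of a group came from separate cultures, and p-values below then measure only the spread between these libraries, which may be technical.

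S100 proteins are small calcium sensors with a pair of EF-hand loops that usually act as dimers and bind partner proteins when calcium rises. Annexins bind phospholipid membranes in the presence of calcium and take part in membrane repair, vesicle traffic and the shaping of the cell cortex. The families meet in known complexes, S100A10 with annexin A2 and S100A11 with annexin A1, and several members are abundant in most adherent human cells.

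The 10 genes have 13 promoters in RefSeq (GRCh38.p14), since S100A13 has 3 and S100A16 has 2. The 6 S100 genes lie on chromosome 1, where 16 S100 genes stand between S100A10 and S100A1, and 47 other protein-coding genes separate S100A10 and S100A11 from the other 4 members. ANXA3 and ANXA5 lie on chromosome 4, ANXA1 on chromosome 9 and ANXA2 on chromosome 15. The 140 bases that end just before the annotated start follow for the 4 genes that were more than 2-fold higher with ASO-L1, for ANXA2, and for ANXA5 as a member that differed little. Capitals mark TATAA, and in ANXA2 also TGANTCA, the core sequence bound by AP-1 factors. All are written 5′ to 3′ on the strand of the gene.
ANXA1, chr9:73151725-73151864, plus strand: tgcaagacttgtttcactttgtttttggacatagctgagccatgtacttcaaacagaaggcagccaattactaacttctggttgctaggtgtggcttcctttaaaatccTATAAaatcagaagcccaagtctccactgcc
S100A6, chr1:153535992-153536131, minus strand: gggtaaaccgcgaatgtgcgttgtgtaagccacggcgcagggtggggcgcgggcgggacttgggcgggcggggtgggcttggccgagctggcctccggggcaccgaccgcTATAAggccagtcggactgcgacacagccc
ANXA3, chr4:78551630-78551769, plus strand: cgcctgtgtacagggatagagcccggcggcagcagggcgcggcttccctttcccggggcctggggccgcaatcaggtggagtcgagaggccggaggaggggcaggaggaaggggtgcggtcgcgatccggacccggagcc
S100A4, chr1:153545807-153545946, minus strand: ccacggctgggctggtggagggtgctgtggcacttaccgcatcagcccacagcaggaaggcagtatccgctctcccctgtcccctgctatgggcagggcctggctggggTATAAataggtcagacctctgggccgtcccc
ANXA2, chr15:60397987-60398126, minus strand: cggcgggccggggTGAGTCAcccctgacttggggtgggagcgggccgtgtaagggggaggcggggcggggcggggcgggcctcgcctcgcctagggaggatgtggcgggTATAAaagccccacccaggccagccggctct
ANXA5, chr4:121696981-121697120, minus strand: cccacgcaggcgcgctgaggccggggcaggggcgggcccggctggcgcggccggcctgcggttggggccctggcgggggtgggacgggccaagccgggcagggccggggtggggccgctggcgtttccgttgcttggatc

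TATAA began between positions -40 and -20 on the strand of the gene in 5 of the 13 promoters (38.5%), against 4.89% of 22199 promoters of protein-coding genes. It stood at -30 in S100A6, at -31 in S100A4, ANXA1 and ANXA2, and at -29 in 1 promoter of S100A13. The motif and its window were chosen after the sequences had been seen, and 28.6% of the promoters of the other S100 genes and annexins held it too. TGANTCA, which reads the same on both strands, occurred within 250 bases before to 50 after the start in 1 of the 13 promoters (7.69%), that of ANXA2, at -127. Its share over all promoters was 6.15%. The ANXA1 promoter held 0 CpG dinucleotides in its 300 bases, as did 1.96% of all promoters, and its GC content was 37.7%, against a median of 62.7% over the members' promoters. Such matches describe letters and say nothing of which factors bound there.

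ASO-Ctr library 2 stood apart within its group by measures that are not independent. Its counts differed from those of ASO-Ctr library 1 by a mean chi-square of 20.1 per gene. Libraries 1 and 2 differed by 2.13 in ASO-L1 and 2.90 in SO-L1. Its mitochondrial share was the lowest, at 4.74%, against 8.08% in ASO-Ctr library 1. Libraries 3 and 4 differed by 11.8 in ASO-L1, 2.08 in SO-L1 and 1.96 in ASO-Ctr. In ASO-L1 their mitochondrial shares were 8.81% and 6.04%. Genes of very high count, mitochondrial ones included, can carry most of such a mean. It therefore does not show that most genes differed. Without ASO-Ctr library 2 the log2 fold changes of the 10 genes in ASO-L1 against ASO-Ctr ran from 0.22 to 2.08, all higher.

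With ASO-L1, the summed level of the 10 genes was higher than in both other groups, and ANXA1, S100A6, ANXA3 and S100A4 showed the steepest differences. CPM are counts scaled to a common library size with TMM factors, and so compare a gene between libraries. The 10 genes together held 1223 ± 27.5 CPM in ASO-L1, 860.4 ± 29.6 CPM in SO-L1 and 806 ± 44.2 CPM in ASO-Ctr (SD, n = 4 each). The 4 annexins held 827 ± 26.1 CPM in ASO-L1, 556 ± 27.9 CPM in SO-L1 and 511 ± 31.7 CPM in ASO-Ctr. The 6 S100 genes held 396 ± 2.74 CPM in ASO-L1, 305 ± 6.03 CPM in SO-L1 and 295 ± 12.9 CPM in ASO-Ctr. In both families the ASO-L1 libraries lay above all libraries of the other groups, and the ranges of SO-L1 and ASO-Ctr overlapped. Within library numbers, the annexin sum and the sum of all 10 genes were higher in SO-L1 than in ASO-Ctr in 4 of 4 pairs.

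**Figure D1:**
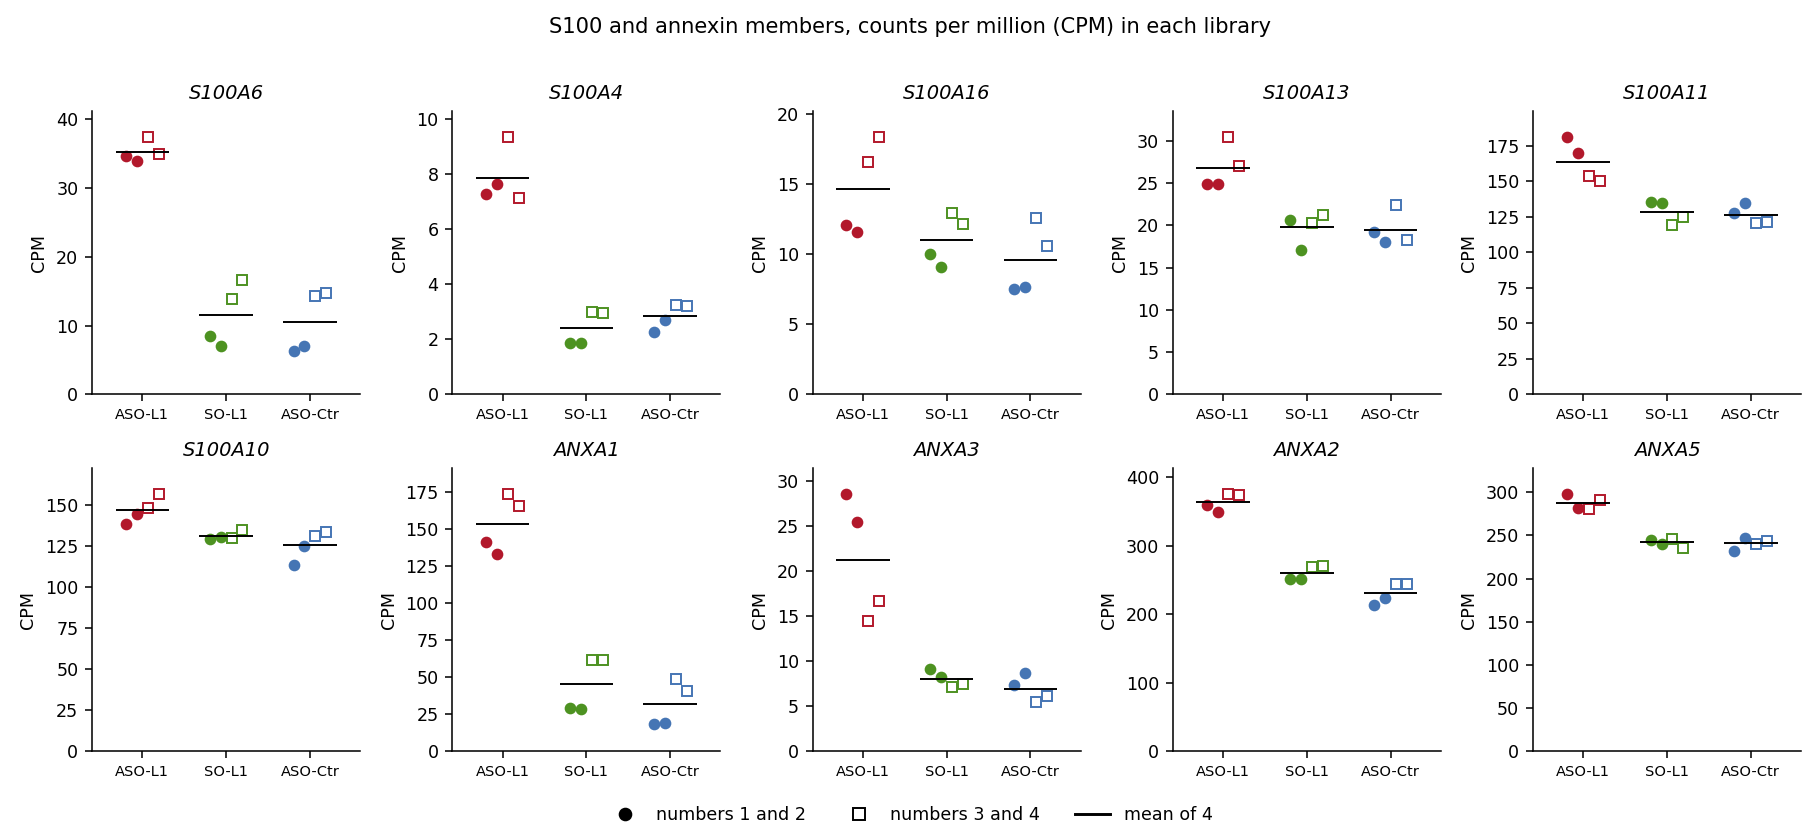
CPM of each of the 10 genes (vertical axes, each from 0) in every library of ASO-L1, SO-L1 and ASO-Ctr; filled circles are libraries 1 and 2, open squares libraries 3 and 4, and bars the mean of 4. In 9 of the 10 panels every ASO-L1 library lies above every ASO-Ctr library, and in S100A16 the groups overlap.

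ANXA1, the glucocorticoid-inducible annexin known for limiting inflammation through formyl peptide receptors, differed most. In libraries 1 to 4 it had 141, 133, 174 and 165 CPM in ASO-L1, then 29.4, 28.8, 61.6 and 61.6 CPM in SO-L1, and 18.9, 19.3, 48.8 and 40.9 CPM in ASO-Ctr. The lowest ASO-L1 library stood far above the highest library of either other group, while SO-L1 and ASO-Ctr overlapped. The log2 fold change (± SE) was 2.26 ± 0.35 against ASO-Ctr, a 4.79-fold difference, and 1.75 ± 0.34 against SO-L1. Both comparisons use the same ASO-L1 libraries and are not independent.

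ANXA3, an annexin abundant in neutrophils, was low in all groups. Libraries 1 to 4 had 28.6, 25.5, 14.5 and 16.7 CPM in ASO-L1, then 9.18, 8.32, 7.10 and 7.54 CPM in SO-L1, and 7.33, 8.67, 5.53 and 6.11 CPM in ASO-Ctr. No ASO-L1 library overlapped the other groups, and libraries 1 and 2 were the high ones in ASO-L1, the reverse of ANXA1. Its log2 fold change was 1.62 ± 0.21 against ASO-Ctr and 1.41 ± 0.21 against SO-L1.

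ANXA2 binds plasminogen and its activators at the cell surface together with S100A10. It had 359, 349, 375 and 373 CPM in ASO-L1, then 251, 251, 269 and 271 CPM in SO-L1, and 213, 224, 244 and 243 CPM in ASO-Ctr. The 3 groups did not overlap, and the replicates lay close together. The log2 fold change was 0.66 ± 0.05 against ASO-Ctr (1.57-fold) and 0.48 ± 0.05 against SO-L1.

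ANXA5, which binds phosphatidylserine and serves as a stain for dying cells, differed least among the annexins. It had 298, 282, 280.1 and 291 CPM in ASO-L1, then 245, 241, 246 and 235 CPM in SO-L1, and 232, 247, 241 and 244 CPM in ASO-Ctr. ASO-L1 stood apart, and SO-L1 and ASO-Ctr overlapped. The log2 fold changes were 0.26 ± 0.04 against ASO-Ctr and 0.25 ± 0.04 against SO-L1.

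S100A6 (calcyclin), a partner of the calcyclin-binding protein CACYBP, showed the largest difference among the S100 genes in this list against ASO-Ctr. It had 34.5, 33.9, 37.4 and 34.9 CPM in ASO-L1, then 8.54, 7.06, 13.9 and 16.6 CPM in SO-L1, and 6.25, 6.99, 14.3 and 14.7 CPM in ASO-Ctr. ASO-L1 libraries were near one another, while the other groups were split by library number. The log2 fold change was 1.73 ± 0.29 against ASO-Ctr (3.32-fold) and 1.60 ± 0.29 against SO-L1.

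S100A4, which binds the heavy chain of non-muscle myosin IIA and is known from motile cells, was a low-level gene. It had 7.28, 7.65, 9.35 and 7.14 CPM in ASO-L1, then 1.88, 1.87, 2.98 and 2.96 CPM in SO-L1, and 2.26, 2.70, 3.26 and 3.22 CPM in ASO-Ctr. The ASO-L1 libraries stood clear of both other groups, at a log2 fold change of 1.45 ± 0.17 against ASO-Ctr and 1.68 ± 0.18 against SO-L1. S100A4 overlaps S100A3 on the same strand in GENCODE, and how reads in the shared stretch were counted was not stated.

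S100A10 (p11) has lost calcium binding and stays in its active shape as the partner of ANXA2. It had 139, 145, 149 and 157 CPM in ASO-L1, then 129.8, 131, 130.3 and 135 CPM in SO-L1, and 114, 125, 131 and 134 CPM in ASO-Ctr. The ASO-L1 libraries lay above the rest by a small margin. Its log2 fold change was 0.23 ± 0.05 against ASO-Ctr and 0.17 ± 0.05 against SO-L1, against 0.66 ± 0.05 and 0.48 ± 0.05 for ANXA2.

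S100A11, a partner of ANXA1, had 181, 169.8, 154 and 150.3 CPM in ASO-L1, then 135, 135, 119 and 125 CPM in SO-L1, and 127, 135, 121 and 122 CPM in ASO-Ctr. All ASO-L1 libraries were above the others, those numbered 1 and 2 most. Its log2 fold change was 0.38 ± 0.07 against ASO-Ctr and 0.35 ± 0.07 against SO-L1.

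S100A13, which helps release FGF1 from cells by a route outside the classical secretory pathway, had 24.9, 24.9, 30.5 and 27.0 CPM in ASO-L1, then 20.6, 17.1, 20.2 and 21.2 CPM in SO-L1, and 19.2, 18.0, 22.4 and 18.2 CPM in ASO-Ctr. The ASO-L1 libraries did not overlap the rest, and the log2 fold change was 0.46 ± 0.09 against ASO-Ctr and 0.44 ± 0.09 against SO-L1. S100A13 shares its locus with S100A1 on the opposite strand. S100A6 and S100A11 also have antisense genes in GENCODE, and although the library kit keeps strand, the counting setting was not given.

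S100A16 had 12.1, 11.6, 16.6 and 18.4 CPM in ASO-L1, then 10.0, 9.11, 12.9 and 12.2 CPM in SO-L1, and 7.52, 7.64, 12.6 and 10.6 CPM in ASO-Ctr. It was the member whose ASO-L1 range overlapped both other groups, though within each library number ASO-L1 was higher in 4 of 4 pairs. Its log2 fold change was 0.61 ± 0.19 against ASO-Ctr and 0.40 ± 0.19 against SO-L1.

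Against ASO-Ctr, 9 of the 10 genes had ASO-L1 libraries that were all higher, and this held for 13.3% of all 17228 genes tested. At least 2-fold higher were 4 of 10, against 2.42% of all genes. Against SO-L1 the same numbers were 9 of 10 beside 12.7% of all genes, and 4 of 10 beside 2.06%. These shares restate what the genes were picked for. All 10 were higher in ASO-L1 in 4 of 4 same-number pairs in both comparisons, and their median log2 fold change was 0.63 against ASO-Ctr (-0.0010 over all genes) and 0.46 against SO-L1 (-0.0029 over all genes). In the authors' deposited table, the log2 fold changes of the 10 genes for ASO-L1 against SO-L1 lay between 0.17 and 1.80. In bulk RNA, more cells of a type that express these genes and more RNA per cell cannot be told apart.

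SO-L1 against ASO-Ctr showed small differences. In 1 of 10 genes, ANXA2, all SO-L1 libraries were above all ASO-Ctr libraries, which held for 1.04% of all genes, and 0 of 10 were at least 2-fold higher, against 0.0638% of all genes. The log2 fold change was 0.17 ± 0.05 for ANXA2, 0.51 ± 0.34 for ANXA1 and -0.23 ± 0.19 for S100A4, which was the member with a lower mean in SO-L1 and was lower in 4 of 4 pairs. ANXA1 was higher in SO-L1 in 4 of 4 pairs, by 1.26-fold to 1.56-fold, and S100A16 in 4 of 4 pairs as well, with a log2 fold change of 0.21 ± 0.20. The other members lay between 0.0046 and 0.21. The median of all 10 members was 0.10, against 0.0031 over all genes.

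**Figure D2:**
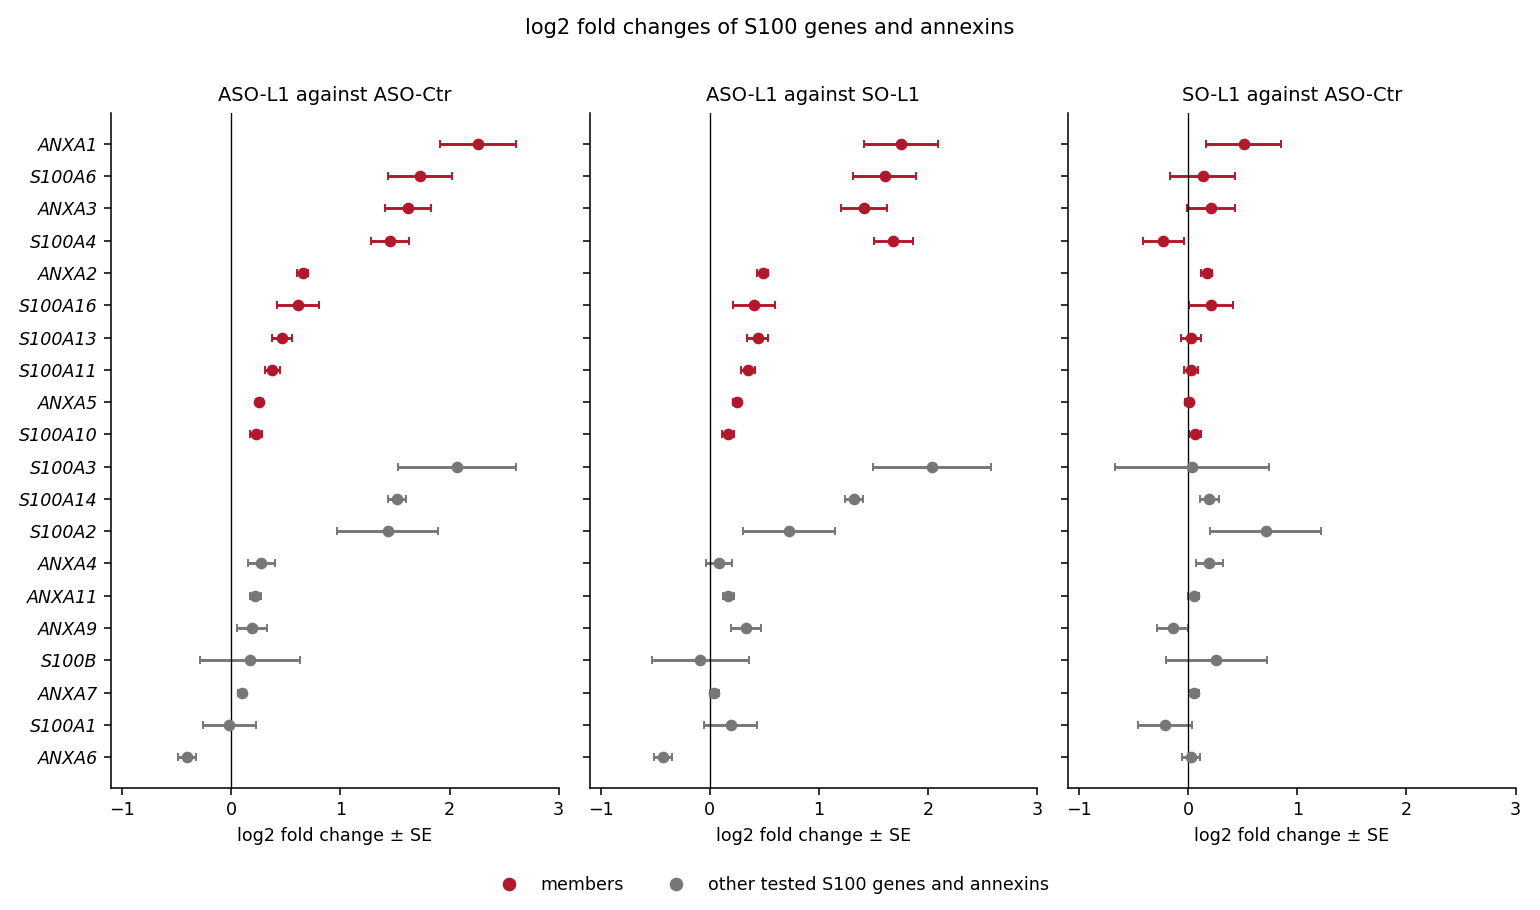
log2 fold change ± SE (horizontal axes) of the 10 genes (red) and of the other S100 genes and annexins that passed the filter (grey), for ASO-L1 against ASO-Ctr, ASO-L1 against SO-L1 and SO-L1 against ASO-Ctr. The red points range from 0.23 to 2.26 on the left and from -0.23 to 0.51 on the right, and ANXA6 is the grey gene furthest below 0 on the left.

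Levels of different genes can be set side by side only per length, here as CPM per kilobase of exon. In ASO-L1 the order was led by S100A11 at 276 ± 24.3, ANXA2 at 193 ± 6.62, ANXA5 at 163 ± 4.73 and S100A10 at 117 ± 6.05 CPM per kilobase. ANXA1 followed at 64.6 ± 8.09, S100A6 at 41.5 ± 1.80 and S100A13 at 29.2 ± 2.87 CPM per kilobase. ANXA3 at 11.8 ± 3.79, S100A4 at 9.50 ± 1.23 and S100A16 at 9.10 ± 2.07 CPM per kilobase came last, and these neighbours did not differ beyond their spread.

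In ASO-Ctr, S100A11 at 212 ± 10.7 CPM per kilobase also led, and ANXA5 at 137 ± 3.57 and ANXA2 at 123 ± 8.09 changed places. S100A13 at 21.2 ± 2.20 CPM per kilobase stood above ANXA1 at 13.5 ± 6.40 and S100A6 at 12.5 ± 5.39, which overlapped in their spread. In SO-L1, ANXA2 at 138 ± 5.75 and ANXA5 at 137 ± 2.86 CPM per kilobase were level within their spread, and ANXA1 at 19.1 ± 7.90 again stood near S100A13 at 21.6 ± 1.98. ANXA1 and S100A6 thus passed S100A13 in order with ASO-L1. The members with the 4 highest levels, S100A11, ANXA2, ANXA5 and S100A10, all had differences under 2-fold.

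**Figure D3:**
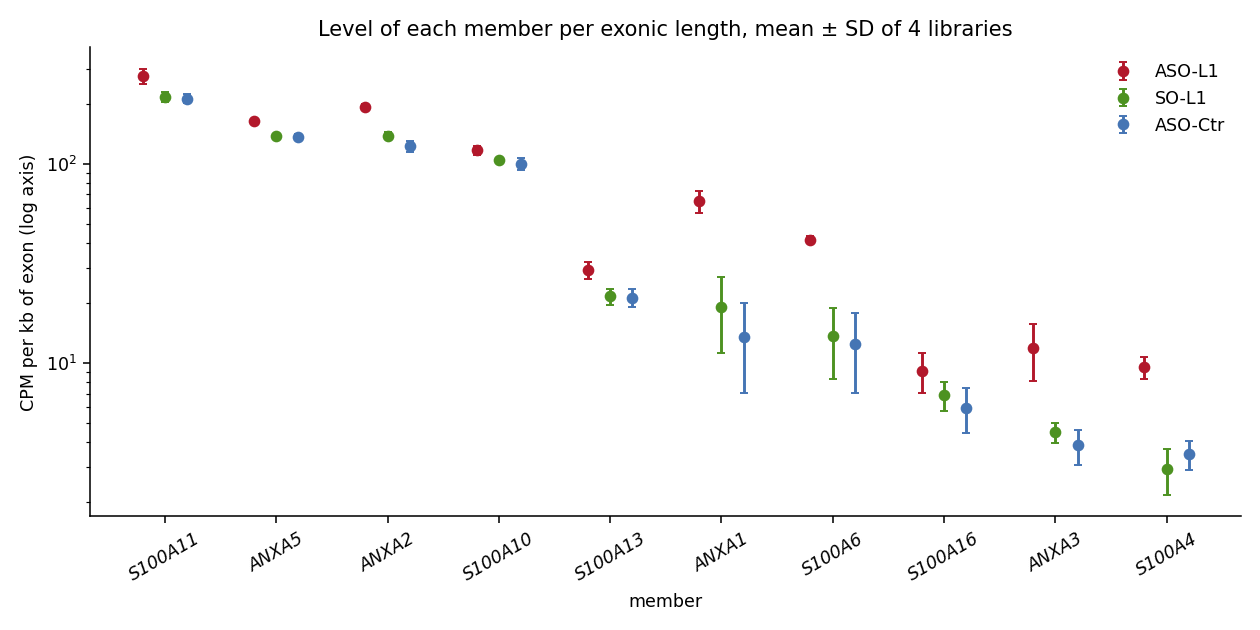
Mean CPM per kilobase of exon ± SD of 4 libraries (log axis) for each of the 10 genes in ASO-L1, SO-L1 and ASO-Ctr, ordered by the level in ASO-Ctr. S100A11 is the highest gene in each group, and the gaps between ASO-L1 and the other groups are widest for ANXA1, S100A6, ANXA3 and S100A4.

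Once group means were removed, libraries 3 and 4 of different groups deviated together across genes, as did libraries 1 and 2. That these pairs of numbers then stood opposite follows from removing the means. The labels do not say what libraries of the same number share. The ASO-L1 difference of several members depended on this split. For ANXA1 the log2 fold change against ASO-Ctr was 1.92 ± 0.05 within numbers 3 and 4, against 2.84 ± 0.06 within numbers 1 and 2. For S100A6, numbers 3 and 4 gave 1.32 ± 0.08 and numbers 1 and 2 gave 2.36 ± 0.09. Both genes were higher in numbers 3 and 4 of ASO-Ctr, by a log2 difference of 1.23 ± 0.07 for ANXA1 and 1.12 ± 0.10 for S100A6. In ASO-L1 the same differences were 0.31 ± 0.05 and 0.08 ± 0.07.

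The log2 fold change of ANXA3 was 1.41 ± 0.11 within numbers 3 and 4, against 1.73 ± 0.09 within numbers 1 and 2. For S100A4, numbers 3 and 4 gave 1.36 ± 0.14 and numbers 1 and 2 gave 1.57 ± 0.15. ANXA3 was lower in numbers 3 and 4, with log2 differences of -0.80 ± 0.08 in ASO-L1 and -0.48 ± 0.12 in ASO-Ctr, and S100A11 by less, with -0.21 ± 0.04 in ASO-L1 and -0.11 ± 0.04 in ASO-Ctr. S100A16 was higher in numbers 3 and 4 by 0.56 ± 0.09 in ASO-L1 and 0.61 ± 0.11 in ASO-Ctr, and its ASO-L1 difference was 0.59 ± 0.09 within numbers 3 and 4, against 0.64 ± 0.10 within numbers 1 and 2. The other 5 members had ASO-L1 differences that varied by 0.04 to 0.09 between these pairs of numbers, and all 10 were higher in ASO-L1 in both. Over all genes, the difference between numbers 3 and 4 and numbers 1 and 2 passed the edgeR quasi-likelihood interaction test in 134 of 17228 (0.778%).

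**Figure D4:**
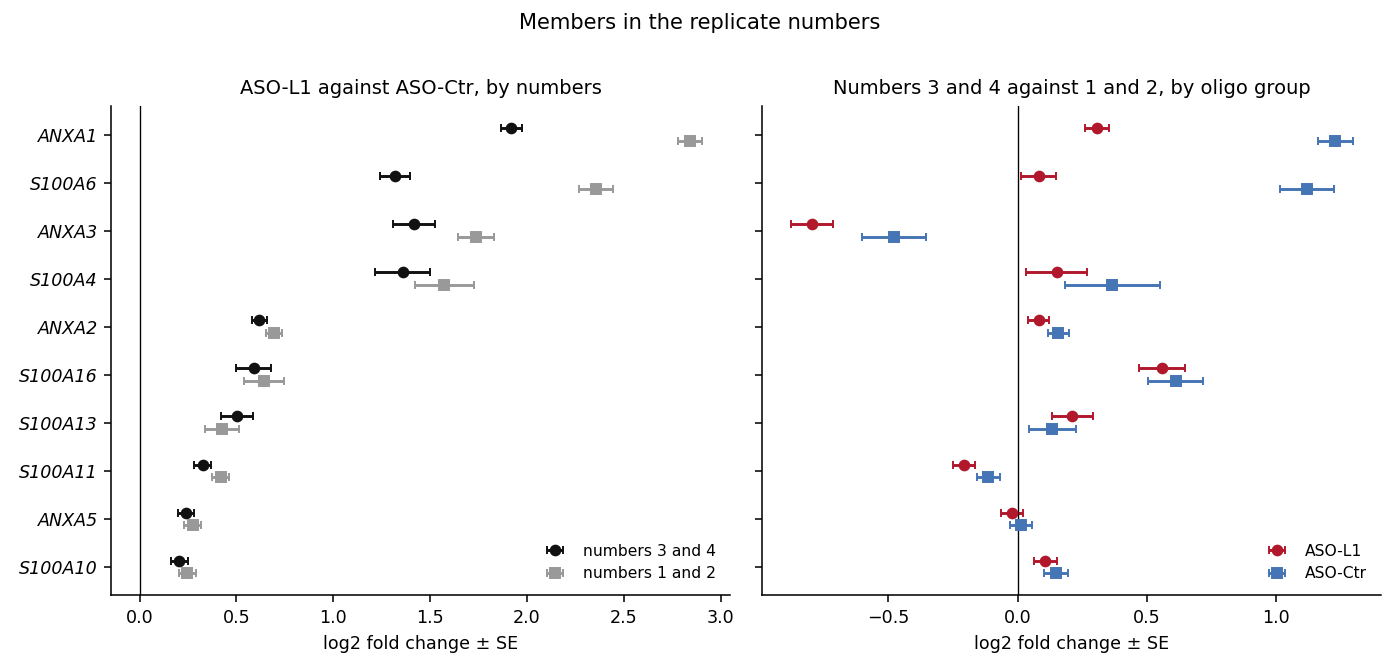
Left, the log2 fold change ± SE of ASO-L1 against ASO-Ctr in libraries 3 and 4 (black) and 1 and 2 (grey). Right, the log2 difference ± SE of libraries 3 and 4 against libraries 1 and 2 within ASO-L1 (red) and within ASO-Ctr (blue). ANXA1 and S100A6 have the widest gaps in both panels, and ANXA3 and S100A11 lie left of 0 on the right in both groups.

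Among the S100 genes that were not picked, S100A14, found mainly in epithelia, also rose. It had 23.1, 20.5, 26.2 and 23.5 CPM in ASO-L1, then 8.59, 9.37, 9.44 and 9.86 CPM in SO-L1, and 8.16, 8.50, 8.47 and 7.51 CPM in ASO-Ctr. No ASO-L1 library overlapped the other groups, and the log2 fold change was 1.52 ± 0.08 against ASO-Ctr (edgeR quasi-likelihood test, adjusted p = 1.61e-07) and 1.32 ± 0.08 against SO-L1 (adjusted p = 6.49e-07). Here and below, p-values are two-sided and adjusted by Benjamini-Hochberg over all 17228 genes, and a gene passed under 0.05.

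Of 15 other S100 genes, 5 passed the filter, but S100A2 and S100A3 did not pass it in the 8 libraries without ASO-L1. They entered through the group where they were high, so they are given by values with no test. Of the other 3, 1 rose against ASO-Ctr, S100A14, and 0 fell. Over all genes, 11.6% rose and 10.7% fell, or 2007 and 1840 genes (3869 and 3878 with the library number as a block). S100A3, known from the hair cuticle, held at most 21 counts in any library. It had 0.708, 0.627, 0.591 and 0.862 CPM in ASO-L1, then 0.0494, 0.0436, 0.203 and 0.339 CPM in SO-L1, and 0, 0.102, 0.358 and 0.165 CPM in ASO-Ctr. The ASO-L1 libraries lay above all others. It overlaps S100A4, so reads may be divided between both genes and its count is uncertain.

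S100A2, a gene of epithelial cells, had 0.236, 0.345, 1.08 and 0.903 CPM in ASO-L1, then 0.296, 0.436, 0.372 and 0.423 CPM in SO-L1, and 0.246, 0.205, 0.318 and 0.165 CPM in ASO-Ctr. The high values were in ASO-L1 libraries 3 and 4, and libraries 1 and 2 overlapped the other groups. S100A1, known from heart muscle, and S100B, a glial marker, did not pass against ASO-Ctr, with -0.02 ± 0.24 (adjusted p = 0.969) and 0.17 ± 0.46 (adjusted p = 0.843).

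The 10 remaining S100 genes did not pass the filter and together held 45 counts in ASO-L1, 17 in SO-L1 and 17 in ASO-Ctr. S100P, a placental and epithelial gene, held 23 counts in ASO-L1, 10 in SO-L1 and 7 in ASO-Ctr. S100A8, S100A9 and S100A12, the calgranulins of myeloid cells, and S100A7, S100A7A and S100A7L2 had 0 counts in all 12 libraries, which allows up to 0.0272 CPM over the ASO-L1 group, 0.0311 CPM over SO-L1 and 0.0303 CPM over ASO-Ctr, from counting error alone.

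The other annexins were mixed. Of 10, 5 passed the filter, of which 1 rose and 1 fell against ASO-Ctr, beside 11.6% and 10.7% of all genes. ANXA11, which tethers RNA granules to lysosomes, had 70.4, 67.9, 66.5 and 70.4 CPM in ASO-L1, then 55.3, 60.4, 64.7 and 64.4 CPM in SO-L1, and 58.1, 59.7, 59.5 and 59.4 CPM in ASO-Ctr. It rose by 0.22 ± 0.05 against ASO-Ctr (edgeR, adjusted p = 0.00777) and by 0.17 ± 0.05 against SO-L1 (adjusted p = 0.0321). The second of these did not pass without any 1 of ASO-L1 libraries 1, 2 or 4 or SO-L1 libraries 1 or 2 (adjusted p 0.0559 to 0.0824), nor with no filter (0.0847) or in numbers 3 and 4 alone (0.093, adjusted p = 0.133).

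ANXA6, an annexin with a duplicated core that acts in endosome and cholesterol traffic, went the other way. It had 118, 115, 139 and 143 CPM in ASO-L1, then 155, 167, 186 and 185 CPM in SO-L1, and 157, 167, 180.0 and 178 CPM in ASO-Ctr. Every ASO-L1 library was below every other library, and the log2 fold change was -0.41 ± 0.08 against ASO-Ctr (edgeR, adjusted p = 0.00334) and -0.43 ± 0.08 against SO-L1 (adjusted p = 0.00260).

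ANXA4 had 0.27 ± 0.12 against ASO-Ctr (edgeR, adjusted p = 0.133, and 2.48e-04 with the library number as a block). ANXA7 had 0.10 ± 0.04 (adjusted p = 0.101, and 0.0140 with the block), and ANXA9 had 0.19 ± 0.14 (adjusted p = 0.378). ANXA8 and ANXA13 had 0 counts in all 12 libraries. ANXA2P1, a processed copy of ANXA2 that could take or lend reads and did not pass the filter without the ASO-L1 libraries, lay between 0.205 and 0.629 CPM in ASO-L1 and between 0.239 and 0.409 CPM in ASO-Ctr. ANXA2 itself had at least 213 CPM in every library. SO-L1 against ASO-Ctr gave 0 calls among these 10 tested S100 genes and annexins. In that comparison edgeR called 0 genes higher (0%) and 5 lower (0.029%) of 17228, with 527 (3.06%) at an unadjusted p under 0.05, against 7 and 45 by DESeq2 and 73 and 170 with the block.

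Proteins that work with the S100 and annexin families were followed as a list of 16, of which 12 passed the filter. The list was drawn up with earlier results of these data known, so its counts are not independent support. Against ASO-Ctr 7 rose and 2 fell, beside 11.6% and 10.7% of all genes. The median log2 fold change of the list was 0.56 (-0.0010 over all genes). AHNAK, the giant scaffold protein that binds the S100A10 and ANXA2 complex, had 92.0, 109, 73.9 and 75.9 CPM in ASO-L1, then 24.9, 24.2, 24.4 and 31.9 CPM in SO-L1, and 19.4, 17.6, 26.5 and 26.0 CPM in ASO-Ctr. It was higher in every ASO-L1 library than in any other, with a log2 fold change of 1.97 ± 0.16 (edgeR, adjusted p = 4.31e-06) against ASO-Ctr and 1.74 ± 0.16 against SO-L1 (adjusted p = 1.35e-05).

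The plasminogen activators and their receptor also rose. PLAU, the urokinase, had 11.2, 11.9, 15.4 and 14.3 CPM in ASO-L1, then 3.51, 3.75, 5.79 and 5.76 CPM in SO-L1, and 3.39, 3.58, 4.89 and 4.29 CPM in ASO-Ctr (1.71 ± 0.18 against ASO-Ctr, edgeR adjusted p = 2.83e-05). PLAUR, its receptor, had 5.35, 6.27, 6.98 and 7.27 CPM in ASO-L1, then 2.76, 2.05, 3.01 and 2.62 CPM in SO-L1, and 1.97, 2.32, 2.23 and 2.19 CPM in ASO-Ctr (1.57 ± 0.14, adjusted p = 6.74e-06). In both genes no ASO-L1 library overlapped the others. PLAT, the tissue activator that binds ANXA2, averaged 12.8 ± 0.792 CPM in ASO-L1, 4.39 ± 1.80 CPM in SO-L1 and 4.62 ± 1.55 CPM in ASO-Ctr (1.46 ± 0.26, adjusted p = 0.00159). Numbers 3 and 4 gave a log2 fold change of 1.17 ± 0.11 and numbers 1 and 2 one of 1.89 ± 0.12, and the difference passed (edgeR interaction test, adjusted p = 0.0166). PLG, plasminogen itself, had 0 counts in ASO-L1 and ASO-Ctr.

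FGF1, the growth factor released with S100A13, had 14.4, 12.3, 11.4 and 11.9 CPM in ASO-L1, then 3.41, 4.14, 4.53 and 3.51 CPM in SO-L1, and 5.66, 5.73, 3.78 and 4.00 CPM in ASO-Ctr (1.38 ± 0.15 against ASO-Ctr, edgeR adjusted p = 2.88e-05). MYH9, the myosin heavy chain bound by S100A4, rose by 0.44 ± 0.05 (adjusted p = 8.51e-05). MYOF, a membrane repair protein, rose by 0.68 ± 0.14 (adjusted p = 0.00343), and numbers 3 and 4 gave 0.32 ± 0.14 (not passed, adjusted p = 0.0768) where numbers 1 and 2 gave 1.06 ± 0.14. For MYOF the difference between these did not pass (edgeR interaction test, adjusted p = 0.0658). The partners that fell were CACYBP, the binding protein of S100A6, with -0.28 ± 0.06 (adjusted p = 0.00607), and SYT1, a synaptotagmin of the FGF1 release complex, with -0.53 ± 0.17 (adjusted p = 0.0421). The call of SYT1 was lost without any 1 of ASO-L1 libraries 1 or 2, SO-L1 libraries 2 or 4, or ASO-Ctr libraries 3 or 4, and with no filter (adjusted p = 0.149). PLAT, MYH9, MYOF, CACYBP and SYT1 were named after their values had been seen. Against SO-L1, 7 of the 12 rose and 1, CACYBP, fell (3 with the block), beside 10.7% and 9.64% of all genes.

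**Figure D5:**
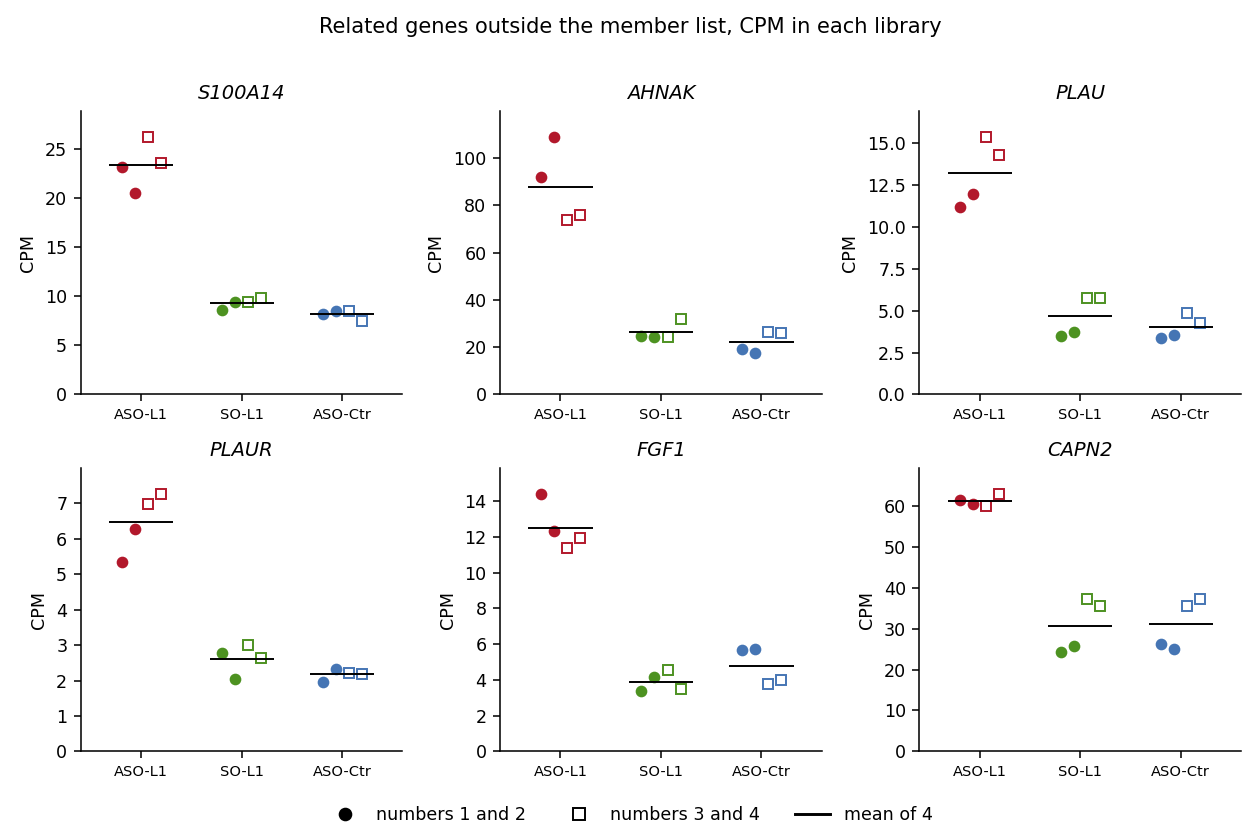
CPM (vertical axes, each from 0) of S100A14, AHNAK, PLAU, PLAUR, FGF1 and CAPN2 in every library of ASO-L1, SO-L1 and ASO-Ctr; filled circles are libraries 1 and 2, open squares libraries 3 and 4, and bars the mean of 4. In each panel all ASO-L1 libraries lie above all libraries of the other groups.

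Other calcium-binding proteins with EF-hands were mostly without a call, as were genes at large. Of 15, all tested, 2 rose, 0 fell and 13 did not pass against ASO-Ctr, beside 11.6% higher and 10.7% lower over all genes. With the library number as a block 6 were lower, and the median of the 15 was -0.04. CAPN2, the large subunit of m-calpain, had 61.5, 60.4, 60.0 and 62.9 CPM in ASO-L1, then 24.3, 25.6, 37.3 and 35.5 CPM in SO-L1, and 26.2, 25.1, 35.6 and 37.3 CPM in ASO-Ctr. It rose by 0.98 ± 0.15 against ASO-Ctr (edgeR, adjusted p = 5.50e-04), and its libraries lay close together in ASO-L1 and were split by number in the other groups, as in S100A6. CALM2, a calmodulin gene, rose by 0.16 ± 0.04 (adjusted p = 0.00747); its call against SO-L1 was lost without any 1 of ASO-L1 libraries 1 or 4 or SO-L1 libraries 2 or 4, with no filter (adjusted p = 0.0613) and in numbers 1 and 2 alone (0.0686). Against SO-L1 the same 2 genes rose and 0 fell (6 with the block), beside 10.7% and 9.64% of all genes, and the median was -0.08.

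Of the nearest genes outside both families on each side of the members, 9 passed the filter. Against ASO-Ctr, where 11.6% of all genes were higher and 10.7% lower, 1 of these 9 passed the test. That was FRAS1, a basement membrane protein next to ANXA3, which fell by 0.60 ± 0.08 on the log2 scale (edgeR, adjusted p = 1.07e-04) to 41.7, 48.3, 40.7 and 42.4 CPM in ASO-L1, against 61.9, 62.8, 49.7 and 61.7 CPM in SO-L1 and 64.6, 63.8, 67.3 and 67.2 CPM in ASO-Ctr. CHTOP, beyond the S100 cluster on chromosome 1, had 0.04 ± 0.05 (adjusted p = 0.675). THEM4, before S100A10, had 0.29 ± 0.11 (adjusted p = 0.0934, and 3.50e-05 with the block). FOXB1, beside ANXA2, had -0.30 ± 0.33 (adjusted p = 0.586, and 9.35e-05 with the block). The others, ALDH1A1, NARG2, BMP2K, QRFPR and TMEM155, ranged from -0.17 to 0.32 and did not pass. TMEM155 passed in numbers 1 and 2 alone, at 0.55 (adjusted p = 0.00642), where numbers 3 and 4 gave -0.019. Between these the difference did not pass (edgeR interaction test, adjusted p = 0.378).

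Of 13241 genes outside both families with a mean log2 CPM above 1, those whose course over the 12 libraries came nearest to the mean course of the 10 members were PCGF1, SQSTM1, TAGLN2, MCAM and KLF4. The root mean square distance between centred log2 CPM profiles was 0.0556, 0.0581, 0.0753, 0.0802 and 0.0825, and its median over all these genes was 0.480. PCGF1, a Polycomb subunit, averaged 14.8 CPM in ASO-L1, 8.47 CPM in SO-L1 and 7.92 CPM in ASO-Ctr. SQSTM1, the autophagy receptor p62, averaged 139 CPM in ASO-L1, 79.7 CPM in SO-L1 and 68.5 CPM in ASO-Ctr. These genes were picked for the likeness, so their differences between groups are given without a test.

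Totals ranged from 20367989 to 32180891 counts per library, and mitochondrial RNAs took 4.74% to 8.81%. POU5F1 and SOX2, core factors of pluripotency, stood at 960.0 ± 35.1 and 357 ± 12.3 CPM in ASO-L1, 1054 ± 20.7 and 409 ± 11.6 CPM in SO-L1, and 1088 ± 49.2 and 419 ± 12.3 CPM in ASO-Ctr. Both fell with ASO-L1 (adjusted p = 0.00596 and 8.21e-04 in edgeR against ASO-Ctr). NANOG, the other of the 3 listed core factors, did not pass, with -0.09 ± 0.04 within numbers 1 and 2 and -0.11 ± 0.04 within numbers 3 and 4. Of the naive markers, KLF17 was under 1 CPM on average in each group, DPPA5 averaged 94.2 ± 28.8 CPM in ASO-L1, 131 ± 31.9 CPM in SO-L1 and 133 ± 24.9 CPM in ASO-Ctr, and DNMT3L rose (0.70 ± 0.21, adjusted p = 0.0329). That call was lost without any 1 of ASO-L1 libraries 1 or 2 or ASO-Ctr libraries 3 or 4, and with no filter (adjusted p = 0.137). KLF4 was picked by profile and is not counted, and the other 4 did not pass. Over all genes, 11.6% rose and 10.7% fell against ASO-Ctr.

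Markers of other cell types moved with ASO-L1 in part. Summed trophectoderm and amnion markers lay between 4.83 and 7.37 CPM in ASO-L1, 3.44 and 4.63 CPM in SO-L1 and 2.90 and 4.33 CPM in ASO-Ctr. Only 3 of the 8 could be tested, and 2 rose against ASO-Ctr, GATA2 and KRT7, beside 11.6% of all genes. CDX2 had 0 counts in ASO-Ctr. The call of KRT7 was lost without any 1 of ASO-L1 libraries 3 or 4 or ASO-Ctr libraries 1, 2 or 4. Summed endoderm markers lay between 1.46 and 2.05 CPM in ASO-L1, 0.444 and 0.778 CPM in SO-L1 and 0.717 and 1.03 CPM in ASO-Ctr, and 2 of 4 passed the filter, neither of them without the ASO-L1 libraries. GATA6 averaged 1.14 ± 0.368 CPM in ASO-L1, 0.0849 ± 0.0770 CPM in SO-L1 and 0.0904 ± 0.127 CPM in ASO-Ctr, and GATA4 averaged 0.348 ± 0.0665 CPM in ASO-L1, 0.258 ± 0.0875 CPM in SO-L1 and 0.445 ± 0.0467 CPM in ASO-Ctr. Summed fibroblast and feeder markers overlapped, at 300.5 to 398 CPM in ASO-L1, 242 to 367 CPM in SO-L1 and 255 to 382 CPM in ASO-Ctr. Of these 8, 4 were tested and 1 rose, COL1A1 (0.80 ± 0.26, edgeR adjusted p = 0.0425), beside 11.6% of all genes. Its call was lost without any 1 of ASO-L1 libraries 2, 3 or 4 or ASO-Ctr libraries 1 or 2, and with no filter (adjusted p = 0.158). COL1A2, the highest of the list, had 149 ± 11.8 CPM in ASO-L1, 171 ± 22.5 CPM in SO-L1 and 168 ± 23.7 CPM in ASO-Ctr and did not pass, while DCN had 0 counts in ASO-L1 and SO-L1 and LUM 0 in SO-L1. The part of such cells in the levels of S100 genes and annexins was not tested.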

How the data were processed

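Poly(A)-selected, strand-specific RNA libraries (12) were analysed. Per the submitters' processing notes, Trim Galore 0.4.0, TopHat2 2.0.13, featureCounts (Subread 1.5.0) and hg19 were used, with no role or order given. The authors deposited raw counts per gene symbol, in a table tagged as having duplicates removed, without saying whether reads or rows. They also deposited batch-corrected log2 values, whose method is not given in the sources used here, and a result table of log2 fold changes, p-values and adjusted p-values for ASO-L1 against SO-L1. The deposited moderated t and B scores were not used. A row without a gene name held 3.27e-06% of the counts and was left out.

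The counts went into edgeR 4.0.16 (R 4.3.3), with filterByExpr (minimum count 10, minimum total 15), TMM scaling and a robust quasi-likelihood model of the 3 groups over the 12 libraries. The SE is the log2 fold change divided by the square root of F. Alternatives were a block on the library number, RLE factors, DESeq2 1.42.0, no filter, numbers 1 and 2 alone, numbers 3 and 4 alone, leaving out each library, and, added after seeing the data, the authors' batch-corrected values. The code was tested on simulated counts. Depth limits low genes, and limits from counts cover counting error only, as PCR copies are not independent molecules. Exonic lengths came from GENCODE v29.

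The members and all gene lists were chosen with earlier results of these data known. Besides the members, the text names every other S100 gene, annexin and copy of a member that passed the filter, up to 4 called partners and EF-hand genes by smallest p, neighbouring genes, the 5 genes nearest in profile and the highest genes of marker lists. Genes outside this rule are marked, and of the marker lists some called and tested genes are named after their values had been seen. After group means were removed, libraries of the same number correlated across genes at r from 0.450 to 0.561 in 12 of 12 pairs. Other pairs within numbers 1 and 2 or within numbers 3 and 4 correlated at 0.455 to 0.543, and pairs between these at -0.530 to -0.426. The negative sign follows from removing the means once the other values are positive. The positive values show the split of numbers 1 and 2 from numbers 3 and 4, and cannot show that a single number pairs libraries. The same-number pairs and the block on the library number were therefore taken from the labels alone. No pair of libraries of the same group was within sampling noise (chi-square per gene at least 1.96).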

Additional observations from a re-analysis of the deposited data

Results flagged for a closer look

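S100A1 had 0.955 CPM in ASO-Ctr library 2, far from 1.82, 1.95 and 1.98 CPM in the other ASO-Ctr libraries. Among 60 groups of 4 libraries examined (20 S100 genes and annexins in 3 groups), this was the 1 group with such a gap, and chance gives about 1 in 20.

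Genes outside the member list that were followed here and not picked by profile gave 5 cases of a difference by library number. In these the log2 fold change of ASO-L1 against ASO-Ctr differed (edgeR interaction test, numbers 3 and 4 minus numbers 1 and 2). Over all genes, 0.778% passed that test. The followed genes came from lists chosen with earlier results of these data known, so the 5 cases cannot be weighed against that share. For CAPN2, numbers 3 and 4 gave 0.75 ± 0.05 and numbers 1 and 2 gave 1.25 ± 0.06, with a difference of -0.50 ± 0.08 (adjusted p = 7.84e-05). PLAT differed by -0.72 ± 0.17 (adjusted p = 0.0166) and COL1A1 by -0.28 ± 0.07 (adjusted p = 0.0191). The naive markers DPPA5 and DPPA3 differed by 0.32 ± 0.07 (adjusted p = 0.0106) and 0.46 ± 0.08 (adjusted p = 3.71e-04). For the members ANXA1 and S100A6 the same difference was -0.92 ± 0.08 and -1.04 ± 0.12, and for TAGLN2, picked by profile, -0.37 ± 0.06. These are given as values since the genes had been picked on the same libraries.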

How the results depend on the processing

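All 10 members kept a positive log2 fold change in ASO-L1 against ASO-Ctr and against SO-L1 under every alternative run. Only ANXA1, S100A6 and S100A4 moved by more than the spread between replicates, and only in numbers 1 and 2 alone. The values there were 2.84 for ANXA1 and 2.36 for S100A6 against ASO-Ctr. Against SO-L1 they were 2.24, 2.14 and 1.99 for ANXA1, S100A6 and S100A4. Leaving out 1 library gave 2.08 to 2.53 for ANXA1 and 1.56 to 1.93 for S100A6 against ASO-Ctr.

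With the replicate block, edgeR called 3869 genes higher and 3878 lower against ASO-Ctr, 3727 and 3742 against SO-L1, and 73 and 170 for SO-L1 against ASO-Ctr. In numbers 1 and 2 alone these were 3024 and 3021, 2963 and 2900, and 43 and 81. In numbers 3 and 4 alone they were 3131 and 2972, 3070 and 2791, and 64 and 137. For SO-L1 against ASO-Ctr, DESeq2 called 7 and 45, and 1 gene was higher with no filter. Among partners, 1 was lower against ASO-Ctr with no filter, and 3 against SO-L1 with the block and in numbers 1 and 2. Of other EF-hand genes, 6, 5 and 4 were lower against ASO-Ctr with the block, in numbers 1 and 2 and in numbers 3 and 4, and 6, 6 and 3 against SO-L1, where 1 was higher with no filter and in numbers 1 and 2. In numbers 3 and 4, 1 other S100 gene or annexin was higher in SO-L1 than in ASO-Ctr. Leaving out 1 library, partners lower against ASO-Ctr ranged from 1 to 2, other S100 genes and annexins higher against SO-L1 from 1 to 3, and EF-hand genes against SO-L1 from 1 to 2 higher and from 0 to 1 lower.

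Among the tested genes, directions turned in some that did not pass over all 12 libraries. Against ASO-Ctr these were S100A1 (0.015 with the block, 0.18 in numbers 1 and 2, and -0.23 to 0.089 leaving out 1 library), ALDH1A1 (0.14 in numbers 1 and 2, and -0.44 to 0.24), BMP2K (0.054 in numbers 1 and 2), TMEM155 (-0.019 in numbers 3 and 4, where numbers 1 and 2 passed), S100B (-0.13 to 0.57), NARG2 (-0.028 to 0.080) and QRFPR (-0.26 to 0.050). Against SO-L1 they were S100B (0.049 in numbers 3 and 4, and -0.32 to 0.12) and ANXA4 (-0.082 in numbers 3 and 4, where numbers 1 and 2 gave 0.22 with adjusted p = 0.0171, and -0.0068 to 0.16). For SO-L1 against ASO-Ctr, leaving out 1 library gave members' values on both sides of 0 for S100A6 (-0.091 to 0.33), S100A13 (-0.011 to 0.096) and ANXA5 (-0.013 to 0.017), and numbers 3 and 4 gave -0.0063 for S100A10 and -0.014 for ANXA5, which the batch-corrected values also turned (-0.00015). The causes were not tested. The counts of other S100 genes here include S100A2 and S100A3. Depth limits S100A1, S100A2, S100A3, S100B, ALDH1A1 and QRFPR, which held under 2 CPM in each library. Numbers 1 and 2 alone, or 3 and 4 alone, leave 2 libraries a group.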
